A study of Mus musculus with 10 samples.

Results

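The genes described here are the MEF2 transcription factors Mef2a, Mef2c and Mef2d, the class IIa histone deacetylases Hdac5, Hdac7 and Hdac9, the calcium/calmodulin-dependent kinases Camk2d and Camk2g, the muscle methyltransferase Smyd1, and the transcription factor Srf. They are 10 of the 21160 genes in the count table, and they were picked by symbol, with their change in these samples already known. Their levels in the comparison below are therefore a description and carry no test. All 10 had counts, and 9 passed the filter on low counts, the exception being Hdac9.

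Gastrocnemius muscle came from 10 wild-type male C57BL/6J mice on a high-fat diet, with a stated age of 30 weeks at the end. The diet began at 9 weeks of age and ran for 9 weeks before the 14 weeks of injections. Those intervals add up to more than 30 weeks, and which value is right cannot be told. The ASO group of 5 mice had been injected under the skin once a week for 14 weeks with RES-010, an antisense oligonucleotide against miR-22, at 10 mg/kg. The CTRL group of 5 mice had received saline, so the comparison holds no oligonucleotide of another sequence. Every mouse is labelled as obese from the diet, no mouse carried an engineered allele, and each library is 1 mouse. In the body weights that the authors list, the CTRL mice were lighter on average than the ASO mice on the first day. The ranges overlapped, and the weights are not matched to libraries. The part of that difference in the values below was not tested. The purpose of the sequencing was to see how the muscle transcriptome differs when miR-22 is inhibited.

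MEF2 proteins bind DNA in the control regions of muscle genes, where class IIa histone deacetylases hold them in a repressed state. Calcium signals relieve that repression, because CaM kinases phosphorylate the deacetylases, which are then bound by 14-3-3 proteins and carried out of the nucleus. SRF is a related factor that works with myocardin family cofactors on contractile and cytoskeletal genes, and SMYD1 is a methyltransferase of striated muscle that is needed for the assembly of sarcomeres and whose gene is itself a known MEF2C target.

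The authors counted read pairs only on segments covering the last 500 bp of annotated 3′UTRs, and the segments of each gene were summed here. Distances from the end of a gene are measured from the most distal annotated end of any of its transcripts. A segment called upstream can therefore be the end of another annotated transcript of that gene. A library held 1606909 to 2116720 counts in CTRL and 2239186 to 2632560 in ASO, so every ASO library was deeper than every CTRL library. Levels are given as CPM, counts scaled by edgeR for the size of each library, with the SD over 5 mice. Fold changes are log2 ratios of ASO to CTRL from edgeR's quasi-likelihood fit over all 7819 genes that passed the filter, and the median of all of them was -0.03. Another feature separates the groups. For each library, the log2 ratio of counts at the distal segment to counts at least 1000 bp upstream was taken over 1575 genes. The median ratio was -0.44 to 0.49 in CTRL libraries and 1.18 to 1.69 in ASO libraries. Counts in the ASO libraries thus lay closer to the annotated ends of genes, which is why the members are also described segment by segment below.

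The oligonucleotide is directed against miR-22, whose main mature strand in RefSeq is shown with its seed, bases 2 to 8, in capitals, because this seed defines the matches looked for in the members.
miR-22-3p: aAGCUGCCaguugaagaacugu
A target carries the complement of that seed, GGCAGCT, which was sought on the transcript strand of each gene's longest 3′UTR in the annotation (GENCODE M39, GRCm39). Of 20954 genes with such a UTR, 3508 (16.7%) had at least 1 match. Srf, Camk2d and Camk2g had 1 each, and so did Hdac4, the remaining class IIa deacetylase gene, which is not a member. Each match is shown in capitals within its surrounding bases, and the positions given are those of the 7 bases.
Srf, chr17:46858735-46858741, minus strand: gggccagaggtgGGCAGCTctcccagggag
Camk2d, chr3:126639063-126639069, plus strand: gtgaatttccttGGCAGCTcctaggcttgt
Camk2g, chr14:20786313-20786319, minus strand: gctgtgtgtggaGGCAGCTgtgaggcgtgg
Hdac4, chr1:91857572-91857578, minus strand: cacgccaaactcGGCAGCTttggggaagga
None of the 4 lies inside a segment that had counts, so the counts come from other stretches of these transcripts. Mef2a, Mef2c, Mef2d, Hdac5, Hdac7, Hdac9 and Smyd1 held no match in their longest 3′UTR. Long UTRs hold the heptamer more often, and the share of genes of like UTR length with a match ran from 14% for Hdac5, with 1410 bases, to 35.5% for Mef2c, with 4805 bases. Among the members with a match it was 21% for Camk2g, 21.9% for Srf and 34% for Camk2d. A match of these letters is a description of the sequence and says nothing of whether the microRNA binds there.

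Of the 9 members in the fit, 4 passed the threshold of an adjusted p of 0.05: Hdac5 was higher in ASO, and Mef2c, Smyd1 and Camk2d were lower. Over all genes tested the corresponding shares were 11.7% higher and 17.5% lower, 29.2% in all. The same 4 genes were those whose 5 ASO values lay wholly above (Hdac5) or wholly below (the others) the 5 CTRL values, against 7.98% and 13.4% of all genes tested. The members were chosen on this contrast, so nothing is read from these counts. The median log2 fold change of the 9 was -0.34. In whole muscle, fewer cells of a type and less RNA per cell cannot be told apart.

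**Figure D1:**
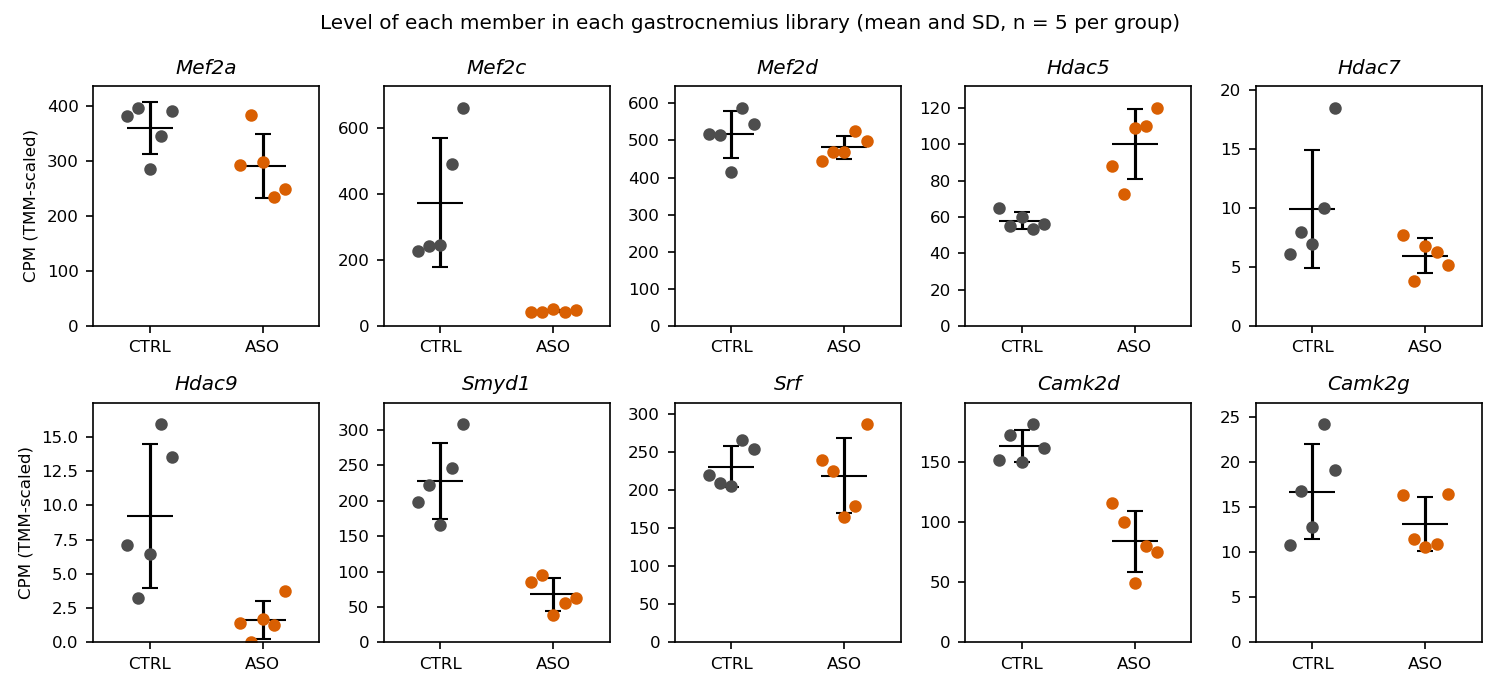
Level of each of the 10 members in CPM (linear axis from 0) in the 5 CTRL and 5 ASO libraries, replicates 1 to 5 from left to right in each group, with bars for the mean and SD. The ASO points of Mef2c (42.2 to 50.7), Smyd1 (38.5 to 95.6) and Camk2d (49 to 116) lie below every CTRL point, those of Hdac5 (72.6 to 120) lie above, and the groups overlap for the others.

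Mef2c showed the widest gap between the groups. Its level was 226, 243, 245, 492 and 661 CPM in CTRL replicates 1 to 5 and 43, 42.9, 50.7, 42.2 and 48.1 CPM in ASO replicates 1 to 5. The ASO libraries were close to one another (45.4 ± 3.82 CPM) while the CTRL libraries were spread (373 ± 195 CPM), with replicates 4 and 5 at about 2 or more times the others. The log2 fold change was -3.04 (SE 0.31), and without CTRL replicate 5 it was -2.73. The libraries high in Mef2c were also those whose counts lay farthest upstream, since the distal-over-upstream ratio was -0.16 in CTRL replicate 4 and -0.44 in CTRL replicate 5, against 0.40, 0.49 and 0.00 in replicates 1 to 3. The part of that difference in the Mef2c values was not tested.

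The counts of Mef2c did not come from the most distal annotated end of the gene. They came mainly from the 3′UTR of a protein-coding transcript that is annotated to end earlier. The gene lies on the plus strand of chromosome 13, and 62.7% of its counts were on the segment chr13:83810963-83811462, which stops 4093 bp short of the most distal annotated end. This segment had 303, 345, 293, 485 and 679 counts in CTRL and 69, 79, 103, 86 and 79 in ASO, a log2 fold change of -2.56 (SE 0.29). A further 28.5% were on chr13:83803167-83803666, 11889 bp from the end, which belongs to a transcript annotated as a target of nonsense-mediated decay and of which only 41 of 500 bases are exonic, the rest being intron. It had 127, 121, 158, 272 and 398 counts in CTRL and 16, 13, 13, 12 and 17 in ASO, a log2 fold change of -4.14 (SE 0.43). Another segment, 2997 bp from the end, held 9 to 37 counts in each CTRL library and 0 to 3 in each ASO library. Its log2 fold change was -4.09 (SE 0.59), so the tested segments of Mef2c were not ordered by distance from the end. Both main segments were thus lower in every ASO mouse, the more so on the one farther upstream and mostly intronic. The 3 segments that end 356 to 358 bp from the gene's end overlap each other almost wholly and hold 0 counts. There is thus no reading of Mef2c near its most distal annotated end.

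Mef2a, which is expressed together with Mef2c and Mef2d in adult muscle, was at 382, 397, 285, 346 and 392 CPM in CTRL and 292, 384, 299, 235 and 249 CPM in ASO. The groups overlapped, with a log2 fold change of -0.30 (SE 0.16). Its segments on the minus strand of chromosome 7 differed by position. The terminal one, chr7:66880911-66881410, had 54.3% of the counts and a log2 fold change of 0.30 (SE 0.20), the next one, 755 bp upstream, had -0.43 (SE 0.19), and one at 921 bp, chr7:66881832-66882331, had -1.40 (SE 0.28). The last of these had 160 to 223 counts per CTRL library and 39 to 128 per ASO library, and the segment 3044 bp upstream had 18 to 55 and 0 to 8. The terminal segment did not pass the threshold and was at 0.08 with total counts. The one at 755 bp did not pass either, and its groups overlapped. Those at 921 and 3044 bp passed as lower. The gene was thus lower at these last segments and not shown to be higher at its end. The segments at 755 and 921 bp overlap each other, with 166 bases each free of overlap, and that at 3044 bp has 60. That terminal segment lies wholly within exons of Lysmd4 on the opposite strand, and the parameters stated for the counting name no strand option, so reads of the pair cannot be told apart there. Lysmd4 itself, on its own segments, was at 21.1 ± 5 CPM in CTRL and 6.15 ± 1.37 CPM in ASO (log2 fold change -1.77, edgeR adjusted p = 4.6e-04).

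Mef2d gave the clearest split within a gene. Summed, it was at 517, 516, 416, 588 and 544 CPM in CTRL and 445, 470, 469, 526 and 498 CPM in ASO, with overlapping groups and a log2 fold change of -0.10 (SE 0.13). The segment chr3:88076738-88077237, 2161 bp from the end on the plus strand, was at 361 ± 56.5 CPM in CTRL and 259 ± 20.2 CPM in ASO, a log2 fold change of -0.47 (SE 0.15). The segment chr3:88078894-88079393, 5 bp from the end, was at 152 ± 20 CPM in CTRL and 233 ± 17 CPM in ASO, a log2 fold change of 0.61 (SE 0.14). The distal segment held 23.7% to 33.1% of the gene's counts in CTRL mice and 46.3% to 48.2% in ASO mice. The distal value was 0.39 when total counts replaced scaled library sizes, and in a fit of the most distal segments alone it was 0.34 (SE 0.12) and did not pass the threshold. The near-equal sums thus cover unlike segments, and which of them stands for Mef2d mRNA cannot be told from the table. The distal segment also overlaps 1700113A16Rik on the opposite strand, a gene not in the table.

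Srf was at 220, 210, 206, 267 and 254 CPM in CTRL and 240, 226, 165, 179 and 287 CPM in ASO, and the groups overlapped (log2 fold change -0.08, SE 0.17). Its more distal segment, chr17:46859255-46859754, 1488 bp from the end on the minus strand, was at 131 ± 16.8 CPM in CTRL and 160 ± 30 CPM in ASO, with overlap, a log2 fold change of 0.28 (SE 0.16) that did not pass the threshold and was 0.05 with total counts. The segment at 2158 bp, chr17:46859925-46860008 and only 84 bp long, was at 98.8 ± 14.7 CPM in CTRL and 63.8 ± 21.6 CPM in ASO, a log2 fold change of -0.63 (SE 0.23). The seed match shown above lies downstream of both.

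The share of a gene's counts on its most distal segment with at least 20 counts, against all segments upstream of it, could be followed in 7 members, those with at least 20 counts in every library. In Mef2a it was 34.5% to 52% in CTRL and 53.4% to 79.1% in ASO, and in Srf 53.5% to 60.7% and 66.1% to 79.7%. In Camk2d, a kinase gene described below, it was 60.2% to 65.2% and 70.4% to 78%, and in Smyd1, where the distal segment held little, 0.477% to 2.37% and 3.76% to 7.69%. These and Mef2d had no overlap between the groups, with the ASO share above in all 5. The shares overlapped in Camk2g, at 34.8% to 69.4% and 65.4% to 85.7%, and in Mef2c, whose distal segment of this kind is 2474 bp from the end, at 1.44% to 3.96% and 0.833% to 4.9%. Over the 1575 genes of the ratio given earlier, 49.3% had every ASO share above every CTRL share and 1.46% the opposite, so the pattern is common in these libraries. Those genes were measured otherwise than the members. Only segments with at least 200 bases free of overlap were used, upstream counts lay at least 1000 bp away, and each side held at least 50 counts. The 2 sets of shares are therefore not strictly alike.

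**Figure D2:**
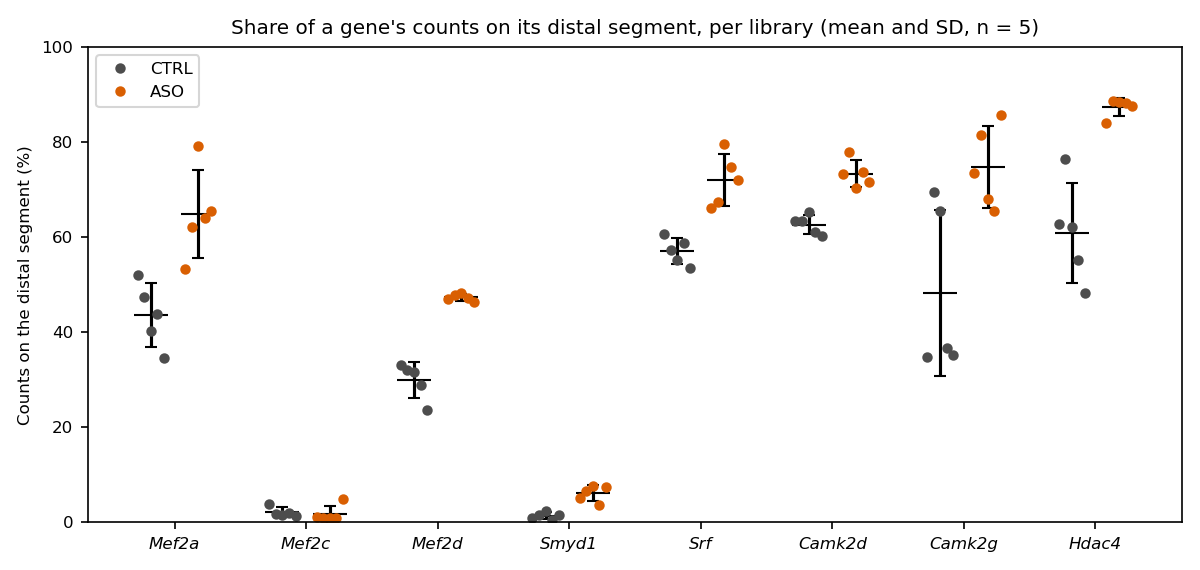
Percent of a gene's counts on its distal segment in each CTRL and ASO library, with the mean and SD of 5 libraries, for 7 members and, for comparison, Hdac4. The ASO points lie above every CTRL point for Mef2a, Mef2d, Smyd1, Srf, Camk2d and Hdac4, and the groups overlap for Mef2c and Camk2g.

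Hdac5 was the 1 member that was higher in ASO. It was at 65.1, 55, 59.8, 53.1 and 56.1 CPM in CTRL and 87.9, 72.6, 109, 110 and 120 CPM in ASO, a log2 fold change of 0.79 (SE 0.15). The lowest ASO mouse was above the highest CTRL mouse. Nearly all of its counts, 99.8%, were on chr11:102086575-102087074, 1330 bp from the end of the gene on the minus strand, in a transcript annotated for nonsense-mediated decay. Only 297 of the segment's 500 bases are exonic in that transcript. Over all transcripts of the gene 500 are exonic, and 327 when those annotated as retained introns are left out. This segment was at 57.4 ± 4.63 CPM in CTRL and 102 ± 20.8 CPM in ASO (log2 fold change 0.83, SE 0.17). All 500 bases of it overlap exons of G6pc3, a glucose-6-phosphatase gene on the opposite strand that has 0 counts of its own in all libraries. Whether the difference lies in Hdac5 or in G6pc3 transcripts cannot be told apart without the strand.

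Hdac7, a deacetylase best known from vascular endothelium and thymus, was near the lower limit of these libraries. It was at 6.13, 7.93, 6.92, 10 and 18.5 CPM in CTRL and 7.72, 3.82, 6.77, 6.26 and 5.19 CPM in ASO, with overlap and a log2 fold change of -0.72 (SE 0.34), which was -0.38 without CTRL replicate 5. All 161 counts were on chr15:97695680-97696179, which is 8308 bp from the end of the gene. It belongs to a transcript annotated for nonsense-mediated decay, and 315 of its 500 bases are exonic. The 8 segments nearer to the end overlap each other completely and had 0 counts.

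Hdac9, which has itself been described as a MEF2 target that feeds back on MEF2, did not pass the filter. It had 15, 7, 13, 27 and 24 counts in CTRL and 3, 0, 4, 3 and 8 in ASO, that is 9.23 ± 5.27 and 1.63 ± 1.36 CPM, and no fold is given. Most of its counts, 69.2%, were on chr12:34423434-34423825, where a short transcript ends 325855 bp from the gene's most distal end, with 5 to 21 counts per CTRL library and 0 to 5 per ASO library. The terminal segment chr12:34097579-34098078 had 1 to 4 counts per CTRL library and 0 to 4 per ASO library, so no difference was detectable there at this depth.

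Hdac4, the class IIa deacetylase with the most established role in denervated muscle, was at 93.4 ± 7.52 CPM in CTRL and 134 ± 67.4 CPM in ASO (log2 fold change 0.52, edgeR adjusted p = 0.14). ASO replicate 2 stood at 252 CPM, and without it the log2 fold change was 0.18. Its segments had log2 fold changes of 1.08 (SE 0.28) at 564 bp from the end and -1.10 (SE 0.28) at 4542 bp, and in a fit of the most distal segments alone it was at 0.83 and did not pass the threshold.

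Camk2d and Camk2g encode subunits of CaM kinase II, which phosphorylates class IIa deacetylases. Camk2d was at 151, 172, 150, 181 and 161 CPM in CTRL and 116, 99.8, 49, 79.7 and 75.4 CPM in ASO, a log2 fold change of -0.95 (SE 0.20). The highest ASO mouse was below the lowest CTRL mouse. All of its main segments lay at least 2006 bp from the end of the gene, on the plus strand of chromosome 3. The nearest, chr3:126637477-126637976, had 66.4% of the counts and a log2 fold change of -0.69 (SE 0.20), and chr3:126636853-126637352, 2630 bp from the end, had -1.36 (SE 0.20). Another at 3115 bp had 9 to 21 counts per CTRL library and 1 to 4 per ASO library. The difference was thus wider with distance from the end within this gene too. The segments that end 7 to 38 bp from its end held only 14 counts in all. Each of them has only 31 bases free of overlap, so few counts there do not show little RNA.

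Camk2g was at 10.8, 16.8, 12.8, 24.2 and 19.1 CPM in CTRL and 16.4, 11.5, 10.6, 10.9 and 16.5 CPM in ASO, with overlap and a log2 fold change of -0.34 (SE 0.26). Its terminal segment, chr14:20784951-20785450 on the minus strand, had 8 to 25 counts per CTRL library and 17 to 30 per ASO library (log2 fold change 0.37, SE 0.32). The segment 1735 bp upstream, chr14:20786677-20787176, had 9 to 26 and 4 to 9 (log2 fold change -1.55, SE 0.41). This upstream segment belongs to a transcript annotated for nonsense-mediated decay, and only 244 of its 500 bases are exonic. Only 8 bases of the terminal segment and 18 of the upstream one are free of overlap with other segments, so the readings are thin.

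Smyd1 was at 198, 223, 166, 247 and 308 CPM in CTRL and 85.9, 95.6, 38.5, 55.5 and 63.2 CPM in ASO. Every ASO mouse was below every CTRL mouse, with a log2 fold change of -1.75 (SE 0.24). This rests on 1 segment, chr6:71192326-71192734, 1403 bp from the end on the minus strand, which held 97.2% of the counts and had 329 to 539 counts per CTRL library and 83 to 210 per ASO library (log2 fold change -1.80, SE 0.25). The segment at the end of the gene, chr6:71190926-71191425, has only 2 bases free of overlap. It had 4, 7, 8, 2 and 9 counts in CTRL and 9, 15, 7, 5 and 10 in ASO. The main segment is 409 bp long, all of it 3′UTR of a protein-coding transcript annotated to end there, and 158 of its bases are free of overlap. A fit of segments with at least 200 such bases left Smyd1 out. The lower level of Smyd1 was therefore measured at this segment only. The few counts at the gene's most distal end overlapped between the groups.

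**Figure D3:**
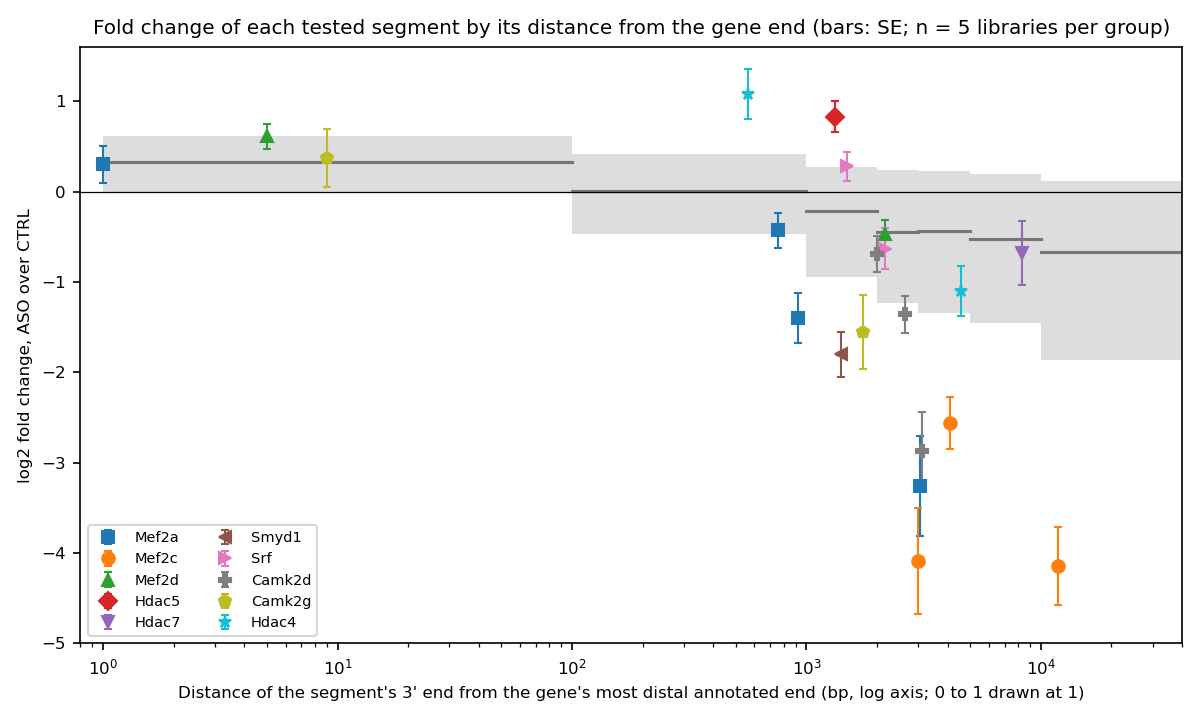
Log2 fold change (ASO over CTRL, bars are the SE) of each tested segment of the members and of Hdac4 against the distance of the segment's 3′ end from the most distal annotated end of its gene (bp, log axis). The grey line and band are the median and quartiles of all tested segments in each distance bin, and they run from 0.33 in the bin nearest to the end to -0.67 in the farthest.

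Across the 19 member segments that passed the filter, of 39 with counts, 12 were past the threshold and lower and 2 were past it and higher, namely the distal one of Mef2d and that of Hdac5. Of all 10658 tested segments, 24.7% were lower and 15.9% higher. Segments over the whole table were ordered by position in the same way. Of the 3315 segments within 99 bp of a gene's end 26% were higher and 3.41% lower, with a median log2 fold change of 0.33 (quartiles -0.02 and 0.61). Between 2000 and 2999 bp the median was -0.45 (quartiles -1.23 and 0.24), with 10.6% higher and 39.9% lower, and at 10000 bp or more it was -0.67 (quartiles -1.86 and 0.12), with 7.85% higher and 48% lower. Set beside segments at like distance, the 2 larger segments of Mef2c (-2.56 between 3000 and 4999 bp, where the quartiles were -1.34 and 0.23, and -4.14 in the farthest bin) and the main one of Smyd1 (-1.80 between 1000 and 1999 bp, quartiles -0.95 and 0.27) lay below the lower quartile. The main segment of Camk2d (-0.69 between 2000 and 2999 bp) lay between the median and the lower quartile, while its others at 2630 bp (-1.36) and 3115 bp (-2.87, quartile -1.34) lay below the lower one. That of Hdac5 (0.83 between 1000 and 1999 bp) lay above the upper quartile. The members were chosen on this contrast, so this is a description, and the part of position in their values was not tested. A fit restricted to the most distal counted segment of each gene left out Mef2c, Hdac5, Smyd1 and Camk2d, whose distal segments have too few counts.

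Genes that followed Mef2c or Smyd1 most closely were found by the root mean square difference of centred log2 CPM over the 10 libraries, among 7628 genes with a mean of at least 10 counts. Nearest to Mef2c were Wfs1 (difference 0.28), at 76.6 ± 34.8 CPM in CTRL and 7.47 ± 1.03 CPM in ASO, Ano5 (0.32), at 170 ± 61.4 and 28.6 ± 6.4 CPM, and Gnl3l (0.34), at 11.6 ± 6.48 and 0.807 ± 0.51 CPM. Nearest to Smyd1 were Zbtb47 (0.17), at 139 ± 31.2 and 34.6 ± 10.1 CPM, Nipsnap2 (0.19), at 968 ± 209 and 289 ± 106 CPM, and Rnf14 (0.20), at 237 ± 33.9 and 78.9 ± 24.5 CPM. The group difference was part of the measure, so the direction of these genes was fixed by the choice.

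Around the members, 102 genes of the same pathways were followed in 8 lists, which were written with earlier results of these data known. Of these genes, 72 were tested, and 15 rose and 10 fell in edgeR's quasi-likelihood test (p adjusted by Benjamini-Hochberg over all genes). That is 34.7%. Over all genes tested 29.2% passed, 11.7% as higher and 17.5% as lower. Because of how the lists were made, these counts and those of each list below are a description. The median log2 fold change of the 72 was 0.26. No counts at all were found in any library for 15 of the 102, among which were Mef2b, Hdac6, Camk4, Sik2, Myocd, Mrtfa and the MEF2 kinase gene Mapk7. In a table with many overlapping segments this does not show that they are silent.

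**Figure D4:**
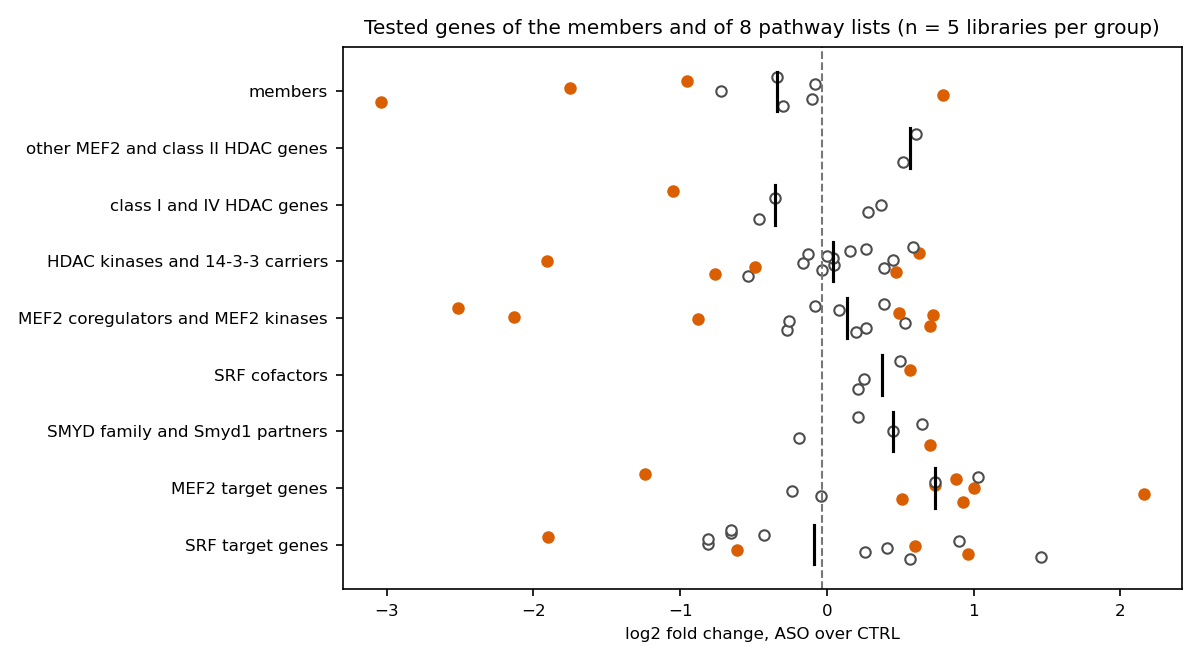
Log2 fold change (ASO over CTRL) of every tested gene among the members and in the 8 pathway lists. Filled points passed the threshold of the fit across all genes, open points did not, the black tick is the list's median and the dashed line the median of all tested genes (-0.03); the MEF2 target genes have the highest median, 0.74, and the members the second lowest, -0.34.

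The list of genes known to be driven by MEF2 proteins had 6 of 11 tested genes rising and 1 falling, with a median of 0.74. That is 63.6% past the threshold, against 29.2% of all genes tested, in a list written with earlier results known. Myog, which encodes the myogenic factor myogenin, rose from 14.7 ± 2.39 to 65.5 ± 28.9 CPM (log2 fold change 2.16, adjusted p = 3.7e-04), counted 1 bp from its end. Ckm, the muscle creatine kinase gene, rose from 19247 ± 4623 to 36666 ± 8563 CPM (0.93, adjusted p = 0.011). Pgam2, a glycolytic enzyme gene of muscle, rose from 1153 ± 290 to 2303 ± 694 CPM (1.00, adjusted p = 0.0074), and Hrc, for a calcium-binding protein of the sarcoplasmic reticulum, from 629 ± 168 to 1155 ± 198 CPM (0.88, adjusted p = 0.0065). Slc2a4, the GLUT4 glucose transporter gene, with a log2 fold change of 0.51 (adjusted p = 0.022), and Cox6a2, a muscle subunit of cytochrome oxidase, with 0.74 (adjusted p = 0.028), rose as well. Xirp2, for a protein of sarcomeric and intercalated discs, fell from 1748 ± 338 to 739 ± 277 CPM (-1.24, adjusted p = 0.0061), and its main segment is 1305 bp from the end. Of the genes that rose, Cox6a2, Pgam2 and Hrc were counted 0, 4 and 16 bp from their ends, and Slc2a4 and Ckm mainly 2363 and 2456 bp from theirs. With total counts in place of scaled library sizes 4 of the list rose and 2 fell, without CTRL replicate 5 4 rose and 1 fell, and with the most distal counted segment alone 3 of 9 rose and 1 fell. Muscle fiber markers, which share Ckm with this list, were also higher. Their summed level was 45350 to 86655 CPM in CTRL and 92349 to 148016 CPM in ASO, with 4 of 5 tested markers higher, none lower and Tnnt3 and Mylpf at 0, and their part in these values was not tested.

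Among the 17 tested kinases and 14-3-3 genes that govern the export of deacetylases, 2 rose and 3 fell, with a median of 0.04. That is 29.4%, near the 29.2% of all genes tested. Prkd3, a protein kinase D gene, fell from 23.5 ± 11.3 to 6.19 ± 1.83 CPM (log2 fold change -1.91, adjusted p = 0.0026), Camk2b from 101 ± 28.1 to 60 ± 9.92 CPM (-0.76, adjusted p = 0.013) and the calmodulin gene Calm2 from 1506 ± 229 to 1070 ± 180 CPM (-0.49, adjusted p = 0.038). The main segments of these 3 lie 1144, 5777 and 2225 bp from the end, and those of the 2 genes that rose, named next, 1883 and 14 bp. The main segment of Camk2b, with 57.5% of its counts, was at -1.83, and that of Calm2, with 52.6%, at -0.86. Both values are lower than those of the summed genes, so the sums cover unlike segments. The main segment of Prkd3, with 70.4%, was at -1.73. Ywhae, for a 14-3-3 protein, rose from 941 ± 133 to 1455 ± 275 CPM (0.63, adjusted p = 0.013) and Camk1 from 54.1 ± 2.58 to 75.1 ± 14.4 CPM (0.47, adjusted p = 0.034).

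Of the 14 tested coregulators and kinases of MEF2, 3 rose and 3 fell, with a median of 0.14. That is 42.9%, against 29.2% of all genes tested. Mapk14, the p38α kinase gene that activates MEF2 proteins, fell from 113 ± 27.4 to 19.9 ± 7.11 CPM (log2 fold change -2.51, adjusted p = 1.1e-04), counted mainly 2007 bp from its end. Ncoa2, a coactivator gene, fell from 17.3 ± 6.65 to 3.91 ± 0.689 CPM (-2.13, adjusted p = 6.1e-04) and the corepressor gene Ctbp1 from 430 ± 59.7 to 233 ± 77.8 CPM (-0.88, adjusted p = 0.016), their main segments being 3370 and 4313 bp from the end. The main segment of Ncoa2, with 64.1% of its counts, was at -2.95, and that of Ctbp1, with 66.5%, at -0.53. These sums thus cover unlike segments too. Ep300, for the acetyltransferase p300, rose from 41.9 ± 13.3 to 68.4 ± 18.4 CPM (0.70, adjusted p = 0.035), Rfxank by 0.72 (adjusted p = 0.029) and the chaperone gene Dnajb5 by 0.49 (adjusted p = 0.039), with main segments 928, 2474 and 702 bp from the end. None of the list rose with total counts, without CTRL replicate 3 or without ASO replicate 3, while 3 fell under each, and 5 rose with upper quartile scaling.

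In the remaining deacetylase lists, 1 of 5 class I and IV genes fell and none rose, with a median of -0.35. It was Hdac11, the class IV gene, which fell from 60.3 ± 14.3 to 29.1 ± 3.55 CPM (log2 fold change -1.05, adjusted p = 0.0012), although its segment 21 bp from the end, with 46.8% of its counts, had a log2 fold change of -0.26. With the most distal segments alone no gene of the class I and IV list fell. The 2 tested genes of the remaining MEF2 and class II group, Hdac4 and Hdac10, did not pass the threshold. Hdac10, of class IIb and named here after its values were seen, was at 16.4 ± 4.69 CPM in CTRL and 25 ± 3.31 CPM in ASO (log2 fold change 0.61, adjusted p = 0.05 after rounding), and 1 gene of this list passed, as higher, with upper quartile scaling, DESeq2 or limma-voom among others.

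Of the 4 tested SRF cofactors, 1 rose and none fell, with a median of 0.37. This was Elk4, a ternary complex factor gene, from 114 ± 15.8 to 170 ± 13 CPM (log2 fold change 0.57, adjusted p = 0.0064). Of the 14 tested SRF target genes, 2 rose and 2 fell, with a median of -0.08. That is 28.6%, near the 29.2% of all genes tested. The immediate early gene Egr1 fell from 123 ± 100 to 33 ± 18.3 CPM (-1.90, adjusted p = 0.029) and the cytoplasmic actin gene Actg1 from 326 ± 102 to 213 ± 41.6 CPM (-0.61, adjusted p = 0.047), while Acta2, smooth muscle actin, rose from 50.8 ± 17.4 to 98.4 ± 44.2 CPM (0.96, adjusted p = 0.039) and Vcl, vinculin, from 156 ± 27.3 to 237 ± 72.1 CPM (0.60, adjusted p = 0.04). Their main segments lie 12, 759, 753 and 14 bp from the end. No SRF target gene passed in either direction without CTRL replicate 5 or without ASO replicate 3, none rose with total counts, and 4 rose with upper quartile scaling. Of 5 tested genes of the SMYD family and Smyd1 partners, Smyd2, a related methyltransferase gene, rose from 306 ± 55.1 to 498 ± 148 CPM (0.70, adjusted p = 0.026), counted 6 bp from its end, and none fell. With total counts none of this list rose, nor when replicate 1 or 3 of CTRL or replicate 3 or 5 of ASO was left out.

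Against the tissue label, 5 of the 12 fiber markers were counted at high levels, namely Acta1, Ckm, Atp2a1, Actn3 and Ttn. The other fiber markers were at or near 0 (Myh1, Myh2, Myh4, Tnni2 and Des under 5 CPM in every library, Tnnt3 and Mylpf at 0), as were the cardiomyocyte markers (0 to 2.54 CPM in sum, Myh6 and Myl7 at 0), so a low level in this table does not show absence. Other cell types also express some of the members. The endothelial markers summed to 200 to 368 CPM in CTRL and 218 to 469 CPM in ASO, with none of 6 tested past the threshold, and the smooth muscle markers to 548 to 1167 and 450 to 1477 CPM, with Acta2 the 1 of 4 tested that rose. Macrophage markers summed to 261 to 1609 and 74 to 575 CPM, with 1 of 6 tested falling, Mrc1, from 56.4 ± 45.7 to 19.6 ± 7.45 CPM (log2 fold change -1.51, edgeR adjusted p = 0.036). Fibroblast markers summed to 247 to 489 and 70.7 to 469 CPM, with 1 of 4 tested falling, Lum, from 160 ± 30.7 to 48.6 ± 22.7 CPM without overlap (-1.72, edgeR adjusted p = 0.0013). The part of these markers in the members' values was not tested. The sums also overlapped for adipocyte markers (843 to 13262 and 714 to 3619 CPM), Schwann cell markers (78.8 to 164 and 39.6 to 541 CPM) and blood markers (804 to 1286 and 243 to 1474 CPM). Lymphocyte markers were at 4.65 CPM or less in every library. Satellite cell markers were the other list that did not overlap, at 37.1 to 62.9 CPM in CTRL and 87.9 to 110 CPM in ASO, and this came from Cdh15, which rose from 38.3 ± 8.29 to 89.6 ± 7.28 CPM. Pax7 was at 7.6 ± 2.46 and 8.6 ± 0.695 CPM (edgeR adjusted p = 0.65), Myf5 at 4.39 ± 1.6 and 2.88 ± 3.03 CPM, and Calcr and Chrdl2 were at 0.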

How the data were processed

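Libraries came from a stranded mRNA kit. The authors used fastp for trimming, STAR for alignment to GRCm39, and counted read pairs with featureCounts on the last 500 bp of 3′UTRs. They deposited raw counts per transcript segment, without normalization, and no strand option is named. Of the 14 per-sample columns, 10 were used and 4 were not. Of 52423 segments, 52361 were found in GENCODE M39, and the others hold 0.0197% of counts. Counts were summed per gene and fitted with edgeR 4.0.16 (R 4.3.3): TMM, filterByExpr, quasi-likelihood test, Benjamini-Hochberg adjustment, threshold 0.05. Segments were fitted likewise. Alternatives used DESeq2 1.42.0, limma 3.58.1, other scalings, filters and segments, and left out each library. Fits were tested on simulated data. The members and lists were chosen with earlier results of these data known. All members are named, and of each list up to 8 genes past the threshold by smallest adjusted p, plus Hdac4, and the 3 nearest genes to Mef2c and Smyd1. P-values judge the difference between the groups against the spread between 5 mice per group. Coordinates are 1-based.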

Additional observations from a re-analysis of the deposited data

Results flagged for a closer look

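Of 72 groups of 5 libraries screened for a single sample far from the others, 3 had one, and chance alone gives about 1 in 20. Hdac4 was at 252 CPM in ASO replicate 2 and at 84.5 to 118 CPM in the other 4 ASO libraries. Ep300 was at 64.8 CPM in CTRL replicate 2 and at 33.1 to 42 CPM in the other CTRL libraries. Vcl was at 362 CPM in ASO replicate 3 and at 182 to 225 CPM in the other ASO libraries. None of the 10 members had such a sample.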

How the results depend on the processing

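Over the 22 alternatives no called member changed direction, and Mef2a, not called otherwise, was called lower with total counts (-0.48). Mef2c kept its call in 21 of the 21 alternatives that tested it (log2 fold change -3.22 to -2.73), Camk2d in 21 of 21 (-1.13 to -0.78), Hdac5 in 21 of 21 (0.60 to 0.90) and Smyd1 in 20 of 20 (-1.92 to -1.56). Mef2d ranged from -0.28 to 0.34, Srf from -0.27 to 0.25 and Mef2a up to 0.27. Over all genes 916 were higher and 1365 lower. Total counts in place of TMM gave 528 and 1821 and moved the median of all genes to -0.21, and upper quartile scaling gave 1261 and 1207. The most distal counted segment alone gave 388 and 604. Leaving out 1 library gave 691 to 1021 higher and 1126 to 1370 lower. Of the pathway genes, 15 were higher and 10 lower. The higher count was 6 with total counts, 23 with upper quartile scaling and 8 with only the most distal segment, where 4 were lower. Without 1 library 7 to 20 were higher and 7 to 11 lower, with 9 higher without CTRL replicate 3, 8 without CTRL replicate 5, 7 without ASO replicate 3 and 9 without ASO replicate 5. The causes were not tested. With the replicate number as a block, 663 genes were higher and 1175 lower. Deviations of same-numbered libraries correlated at -0.427 to 0.164 and no library correlated best with its own number, so the numbers do not pair the samples. Libraries of 1606909 to 2632560 counts limit Hdac7, Hdac9 and Camk2g, and so does the overlap of segments in Hdac7 and Camk2g. Coverage that differs along the 3′UTR, confounded with group, limits the other members. Hdac5 is further limited by its overlap with G6pc3 on the opposite strand.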
